A study of Homo sapiens with 24 samples.

Results

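The genes described here are 10 components of the transforming growth factor beta (TGF-beta) pathway, chosen by symbol from the 58174 genes listed in each of 4 expression tables. They are the ligands TGFB1, TGFB2 and TGFB3, the receptors TGFBR1 and TGFBR2, the receptor-regulated SMADs SMAD2 and SMAD3, the common-mediator SMAD4, the inhibitory SMAD7 and TGFBI, an extracellular matrix protein whose gene is induced by the pathway. All 10 were found once in every table. Human lines derived from 4 solid tumours were transfected with a control siRNA (siC) or a siRNA pool directed at IGF2BP1 (siI1), and RNA depleted of ribosomal RNA was sequenced in 3 libraries for each of the 8 groups. A549 is a lung, ES2 an ovarian, MV3 a melanoma and PANC1 a pancreas cancer line. All were grown in the same serum-containing medium with no added TGF-beta named, and RNA was collected 72 h after transfection from A549, ES2 and MV3 and 96 h after it from PANC1. IGF2BP1 is an RNA-binding protein of the embryo that many tumours make again, and the comparison addresses what its depletion does to RNA levels.

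In the TGF-beta pathway a secreted ligand dimer brings TGFBR2 and TGFBR1 chains together. TGFBR2 phosphorylates TGFBR1, which then phosphorylates SMAD2 and SMAD3, and these enter the nucleus with SMAD4 and bind DNA near target genes. SMAD7 is itself a target gene and blocks TGFBR1, so that it forms a feedback loop. In epithelial tumours the pathway can restrain growth and can also drive the loss of epithelial traits.

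Both IGF2BP1 and the SMADs recognise or affect particular sequence elements, and these are shown for the genes that carry them. IGF2BP1 is known to shield some of its target mRNAs from microRNAs, among them the let-7 family. The mature let-7a-5p is shown with bases 2 to 8, the seed, in capitals, followed by each 7-base match to that seed in the longest annotated 3'UTR of the 10 genes, read from hg38 on the strand of the gene with the match in capitals.
let-7a-5p: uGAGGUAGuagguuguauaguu
TGFBR1 (chr9:99149365-99149387, plus strand): gggaggtcaattgttCTACCTCa
SMAD2 first match (chr18:47838048-47838070, minus strand): acccagttggtttctCTACCTCt
SMAD2 second match (chr18:47821153-47821175, minus strand): ttcaagaagaaaactCTACCTCa

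The word CTACCTC was searched on the transcript strand only. TGFBR1 held 1 match, 75 bases after the stop codon, and SMAD2 held 2 in a 3'UTR of 32870 bases, at 3772 and 20667 bases after the stop codon. The other 8 genes held none. Of 19249 protein-coding genes with a 3'UTR, 10.6% held the word. Among the 1309 genes whose 3'UTR was within 1.2-fold of the TGFBR1 length of 4887 bases, 25.3% did. A match is a description of the sequence and no evidence of binding.

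The other element is the palindrome GTCTAGAC, which SMAD3 and SMAD4 bind. Among the 2000 bases before the annotated gene starts, 1 of the 10 genes held it, SMAD7, and 248 of 20033 protein-coding genes did (1.24%). It lay 1253 bases before the SMAD7 start in hg38. The 100 bases around it are shown on the strand of the gene, with the palindrome in capitals. In the shorter RefSeq promoter windows, from 250 bases before to 50 after a start, 0.202% of 35116 windows held the palindrome, and none of the 26 windows of the 10 genes did.
SMAD7 upstream (chr18:48952172-48952271, minus strand): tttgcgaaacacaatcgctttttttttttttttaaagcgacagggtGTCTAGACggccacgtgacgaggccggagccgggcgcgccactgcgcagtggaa

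The knockdown was seen in every line. IGF2BP1 in siC and siI1 libraries was 39.6 to 39.8 and 15.2 to 16.4 FPKM in A549, 12.1 to 14.0 and 4.03 to 4.22 in ES2, 9.06 to 9.64 and 2.77 to 3.02 in MV3, and 10.98 to 11.3 and 2.71 to 2.87 in PANC1. FPKM are reads scaled to gene length and to library size. On the log2 scale IGF2BP1 fell by 1.32 in A549, by 1.55 in ES2, by 1.52 in MV3 and by 1.83 in PANC1 (limma, adjusted p = 0.000319, 0.000115, 5.93e-05 and 0.000227). Reads in genes numbered 3105215 to 4553326 a library in A549, 6421764 to 8419467 in ES2, 6532175 to 8472851 in PANC1 and 15572492 to 20082702 in MV3, so that a given FPKM rested on the fewest reads in A549. Some defining markers of the labelled tissues were absent: NKX2-1 and SFTPB were at 0 in every A549 library and SOX10, TYR and S100B in every MV3 library. In PANC1 the pancreatic duct marker CFTR was at most 0.0326 FPKM, while SOX9 was at 16.9 to 20.3 and KRT7 at 1.83 to 3.59. Of the leukocyte genes, CD3E was at 0 in all libraries and PTPRC was at most 0.0332 FPKM, in PANC1. CD14 was at 2.06 to 2.99 FPKM in siC and 3.46 to 5.36 in siI1 of A549. In ES2 CD14 was at 0 to 0.165 FPKM in siC and 0.188 to 0.956 in siI1, and in MV3 and PANC1 its groups overlapped. Of the 5 epithelial markers CDH1, EPCAM, KRT8, KRT18 and KRT19, all but EPCAM had all siI1 below all siC libraries in A549. The share of all genes whose groups do not overlap in this way was not computed. The summed level of the 5 went from 759 to 840 FPKM in siC to 378 to 403 in siI1 of A549. In PANC1 the sum was 1339 to 1761 FPKM in siC and 2059 to 2212 in siI1, with KRT8 and KRT19 above. The other way, CDH1 went from 4.03 to 4.83 FPKM in siC to 0.816 to 1.42 in siI1 of PANC1. EPCAM there went from 3.21 to 3.92 FPKM to 1.39 to 2.44. In ES2 the epithelial sum overlapped, at 50.6 to 56.9 FPKM in siC and 47.9 to 61.7 in siI1. It did so in MV3 too, at 21.5 to 23.4 and 19.8 to 22.7. The summed mesenchymal markers (VIM, CDH2 and ZEB1) went from 292 to 298 FPKM in siC to 256 to 275 in siI1 of A549, from 1091 to 1133 to 901 to 978 in ES2 and from 546 to 577 to 668 to 724 in PANC1, and overlapped in MV3. VIM made up most of these mesenchymal sums and was the only one of the 3 whose groups did not overlap in A549 and PANC1. In ES2 VIM fell, but CDH2 rose from 22.8 to 27.9 FPKM in siC to 39.0 to 41.5 in siI1, and ZEB1 overlapped. CDH1 was at most 0.0192 FPKM in ES2 and 0.0165 in MV3, where CDH2 was at most 0.0258. The 10 most abundant genes took 14.2 to 19.2% of reads in the siC and 24.8 to 28.8% in the siI1 libraries of PANC1, led by the small cytoplasmic RNA RN7SL2. The part of these shifts in the results that follow was not tested. In bulk RNA, fewer cells of a type cannot be told apart from less RNA per cell.

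Fold changes are log2(FPKM + 0.5) in siI1 minus siC ± SE, with p-values from limma adjusted over all genes tested in a line, and a gene is called when the adjusted p is under 0.05. Each group has n = 3. In A549, 9 of the 10 genes were tested, 2 were lower and 2 higher in siI1, against 7.83% and 5.93% of all 18411 genes tested. In ES2 all 10 were tested and 4 were higher, against 10.5% of 16920 genes. There 0 were lower by limma on FPKM, against 13% of all genes. At an unadjusted p under 0.05 and by limma voom 0 were lower too. Limma voom called 5358 of 16920 genes in ES2 in either direction. In MV3, 9 were tested, 1 was lower and 3 were higher, against 19.5% and 16.3% of 16380 genes. In PANC1 all 10 were tested, 4 were lower and 1 was higher, against 13.4% and 11.3% of 15846 genes. For A549, ES2, MV3 and PANC1, in this order, the genes tested had a median log2 fold change of -0.014, 0.24, 0.13 and -0.20, where that of all genes was -0.013, -0.019, 0.0098 and -0.036. No gene of the 10 was called in the same direction in all 4 lines.

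**Figure D1:**
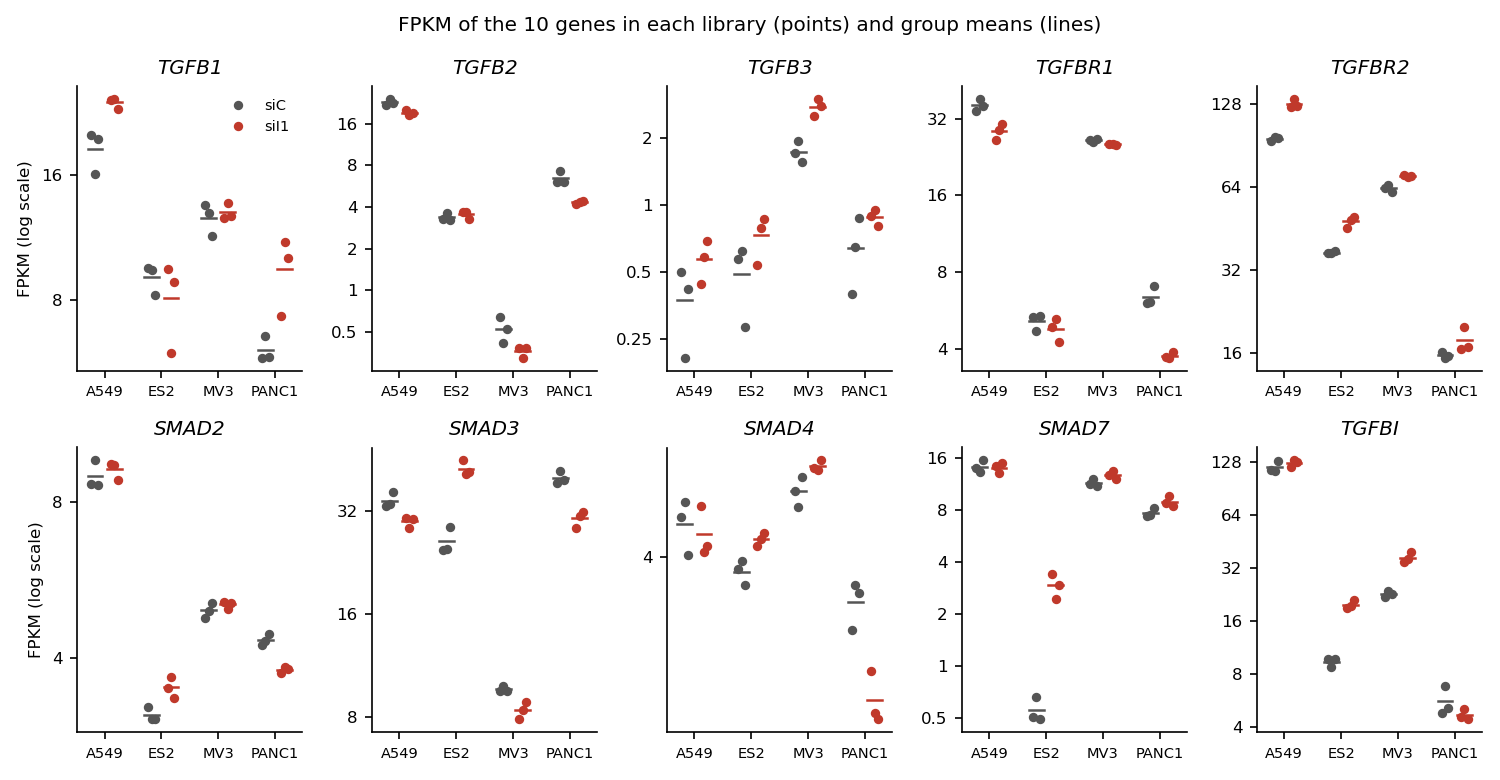
FPKM (log scale, a separate range in each panel) of the 10 genes in each siC (grey) and siI1 (red) library of the 4 lines, with lines at the group means, n = 3. SMAD7 in ES2 shows the widest separation, from 0.488 to 0.661 FPKM in siC to 2.44 to 3.42 in siI1.

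The receptors moved apart. TGFBR2, the ligand-binding type II receptor, rose in A549, ES2 and MV3. TGFBR1, the type I receptor that signals to the SMADs, fell in A549 and PANC1. TGFBR2 was the more abundant of the pair in each of the 24 libraries, and within every line its excess over TGFBR1 was larger throughout the siI1 group.

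TGFBR2 in A549 was 93.5, 96.8 and 95.9 FPKM in the siC libraries and 125, 133 and 125 in the siI1 libraries. The siI1 libraries lay above all siC libraries, and the gene rose by 0.42 ± 0.045 (adjusted p = 0.00338). In ES2 it was 36.7, 36.8 and 37.5 FPKM in siC and 45.4, 48.7 and 49.9 in siI1, again without overlap, and rose by 0.37 ± 0.047 (adjusted p = 0.00304). In MV3 it was 63.3, 65.0 and 61.4 FPKM in siC and 70.4, 69.4 and 70.0 in siI1, and rose by 0.14 ± 0.030 (adjusted p = 0.0114). The MV3 call was lost when libraries were scaled to the same sum of FPKM (adjusted p = 0.118). In PANC1 the values were 16.1, 15.4 and 15.6 FPKM in siC and 16.6, 19.9 and 16.8 in siI1. They did not overlap either, but the log2 fold change of 0.17 ± 0.081 was not called (adjusted p = 0.179), and with same-sum scaling it became -0.57 (adjusted p = 0.0189).

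TGFBR1 in PANC1 was 6.07, 6.13 and 7.08 FPKM in siC and 3.74, 3.69 and 3.89 in siI1. All siI1 libraries lay below the siC libraries, and the gene fell by 0.69 ± 0.083 on the log2 scale (adjusted p = 0.00292). In A549 it was 34.1, 38.2 and 35.9 FPKM in siC and 26.4, 28.9 and 30.4 in siI1, and fell by 0.33 ± 0.072 (adjusted p = 0.0305). This A549 call was lost when any of the 3 siC libraries or siI1 replicate 1 or 2 was left out (adjusted p = 0.0584 to 0.0866). In MV3, the values of 26.4, 25.9 and 26.5 FPKM in siC and 25.5, 25.3 and 25.2 in siI1 did not overlap, but differed by only -0.05 ± 0.026 (adjusted p = 0.175). In ES2 they overlapped, at 5.32, 4.72 and 5.39 FPKM in siC and 4.86, 5.23 and 4.25 in siI1, with a difference of -0.10 ± 0.097 (adjusted p = 0.526).

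A ratio of 2 genes within a library does not depend on how libraries are scaled. The TGFBR2 to TGFBR1 ratio was 2.53 to 2.74 in siC and 4.12 to 4.71 in siI1 libraries of A549, 6.90 to 7.80 and 9.31 to 11.7 in ES2, 2.31 to 2.51 and 2.74 to 2.78 in MV3, and 2.21 to 2.65 and 4.33 to 5.39 in PANC1. It was thus higher in siI1 with no overlap in 4 of 4 lines, by 1.69-fold in A549, 1.40-fold in ES2, 1.15-fold in MV3 and 1.92-fold in PANC1. Over the 4 lines the mean log2 change was 0.59, or 1.51-fold. An exact two-sided permutation test that exchanged labels within lines gave p = 1.25e-05, the smallest that its 160000 relabellings allow (adjusted over 3 ratios, 3.75e-05). Within 1 line, 3 against 3 libraries cannot go below 0.10. The 3 ratios were chosen after their values were seen, so the adjustment over 3 does not cover that choice and the p-values only describe the ratios picked.

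**Figure D2:**
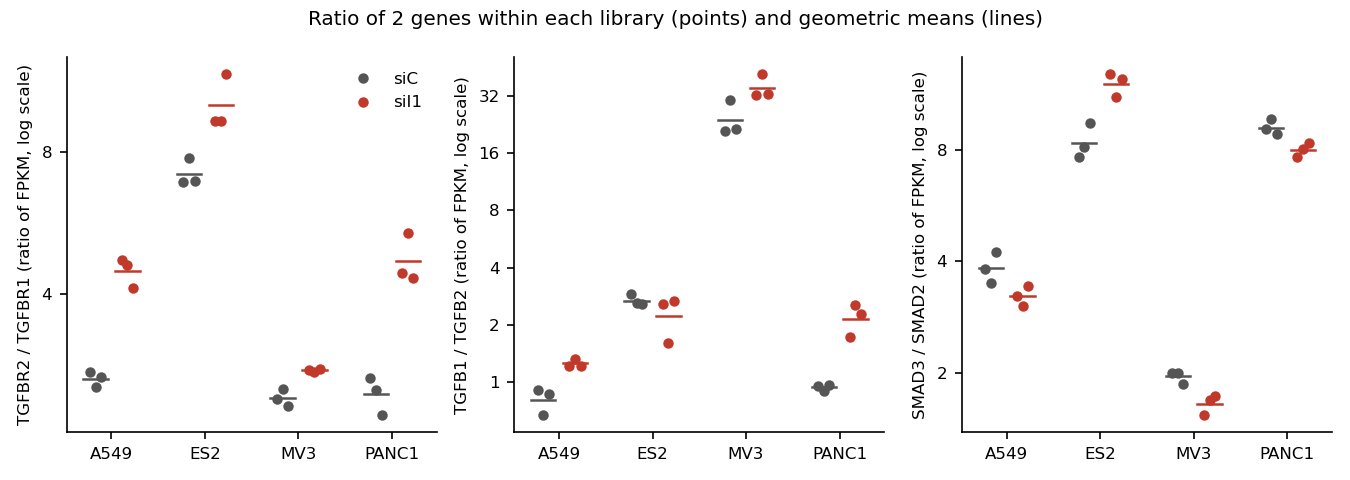
Ratio of the FPKM of 2 genes (log scale) in each siC (grey) and siI1 (red) library of the 4 lines, with lines at the geometric means, n = 3. The TGFBR2 to TGFBR1 ratio is higher in siI1 in all 4 lines, while the SMAD3 to SMAD2 ratio is higher in ES2 and lower in the other 3.

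The ligands differed in level between lines and moved in different directions. TGFB1, the most widely expressed ligand, was higher in siI1 in A549 and PANC1, TGFB2 was lower in the same lines, and TGFB3 was higher in MV3. In ES2 none of the 3 ligands was called, 0 passed an unadjusted p under 0.05 and 0 were called by limma voom. Of all genes in ES2, 13% were called lower and 10.5% higher by limma on FPKM. Limma voom called 5358 of 16920 in either direction. With 3 genes, a count of 0 is not far from these shares. Levels are set side by side across lines here although the 4 tables were scaled separately. In siC, TGFB1 stood highest in A549 at 18.5 ± 2.12 FPKM (SD), then in MV3 at 12.6 ± 1.11, in ES2 at 9.05 ± 0.722 and in PANC1 at 6.04 ± 0.422. This order held without overlap of neighbouring groups. TGFB2 ranged more widely, from 22.9 ± 1.143 FPKM in A549 over 6.49 ± 0.699 in PANC1 and 3.38 ± 0.230 in ES2 to 0.531 ± 0.112 in MV3, and TGFB3 was at 1.74 ± 0.189 FPKM in MV3 and below 1 in the siC libraries of the other lines.

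TGFB1 in PANC1 was 5.79, 6.53 and 5.81 FPKM in siC and 7.32, 11.04 and 10.1 in siI1. All siI1 libraries were above siC, with siI1 replicate 1 nearest to it, and the gene rose by 0.59 ± 0.15 (adjusted p = 0.0333). In A549 it was 19.9, 16.1 and 19.5 FPKM in siC and 24.3, 24.4 and 23.1 in siI1, and rose by 0.37 ± 0.091 (adjusted p = 0.0467). Both calls lay near the threshold. The A549 call was lost without siC replicate 1 or 3 or any of the siI1 libraries (adjusted p = 0.0695 to 0.130), and the PANC1 call without any siC library or siI1 replicate 2 or 3 (adjusted p = 0.0517 to 0.102). Scaling the PANC1 libraries to the same sum of FPKM moved the median of all genes from -0.036 to -0.68 and that of TGFB1 from 0.59 to -0.12. In MV3 (0.04 ± 0.070, adjusted p = 0.671) and ES2 (-0.18 ± 0.17, adjusted p = 0.518) the libraries of the groups overlapped, and in ES2 the siI1 replicate 2 stood lowest at 5.95 FPKM. TGFB1 overlaps HNRNPUL1, CCDC97 and TMEM91 on the opposite strand, and since the strand setting of the counting is not given in the sources used here, their reads cannot be told apart.

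TGFB2 in PANC1 was 6.12, 7.30 and 6.06 FPKM in siC and 4.23, 4.36 and 4.40 in siI1. The groups did not overlap, and the gene fell by 0.53 ± 0.089 (adjusted p = 0.00861). In A549 it was 21.9, 24.1 and 22.7 FPKM in siC and 20.03, 18.4 and 19.0 in siI1, and fell by 0.25 ± 0.062 (adjusted p = 0.0461). The A549 call was lost when any 1 of the 6 libraries was left out (adjusted p = 0.0697 to 0.136). ES2 showed 3.29, 3.64 and 3.203 FPKM in siC and 3.68, 3.72 and 3.29 in siI1, with overlap (0.07 ± 0.090, adjusted p = 0.651). In MV3 the gene was under the limit of a mean of 0.5 FPKM, with 0.645, 0.421 and 0.528 FPKM in siC and 0.387, 0.326 and 0.386 in siI1, which rested on 34 to 50 reads a library. The span of TGFB2 overlaps the antisense gene TGFB2-AS1, and whether its reads entered the TGFB2 values was not resolved either.

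TGFB3 in MV3 was 1.72, 1.93 and 1.56 FPKM in siC and 2.52, 3.002 and 2.80 in siI1. The groups did not overlap, and it rose by 0.55 ± 0.098 (adjusted p = 0.00635), on 121 to 299 reads a library. In the other lines it rested on 4 to 36 reads. It was not tested in A549, and in ES2 (0.32 ± 0.25, adjusted p = 0.422) and PANC1 (0.30 ± 0.23, adjusted p = 0.400) the groups overlapped, so that a change of the size seen in MV3 was not detectable there. The span of TGFB3 overlaps IFT43 and TGFB3-AS1 on the opposite strand, again without a check of shared exons.

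As a share of the summed FPKM of the 3 ligands, TGFB1 went from 39.7 to 47.1% in siC to 54.0 to 56.2% in siI1 of A549, and from 45.1 to 47.1% to 58.8 to 67.5% in PANC1. With the listed gene lengths TGFB2 led in siC and TGFB1 in siI1 of both lines, whereas per canonical transcript length TGFB1 already led in siC, at 21.5 against 20.1 in A549 and 7.04 against 5.70 in PANC1. The canonical TGFB2 transcript, at 5868 bases, is longer than the listed 5151, which lowers TGFB2 here. At its listed length TGFB2 stood at 22.9 FPKM in A549, above the 21.5 of TGFB1, so the A549 order rests on that difference in annotation. In MV3 TGFB1 held 84.5 to 85.1% in siC and 80.0 to 81.2% in siI1, while TGFB3 went from 10.8 to 12.7% to 16.3 to 17.7%. The TGFB1 share in ES2 was 68.8 to 71.1% in siC and 56.9 to 69.3% in siI1, with overlap. The TGFB1 to TGFB2 ratio changed by 1.55-fold in A549, 0.833-fold in ES2, 1.48-fold in MV3 and 2.31-fold in PANC1. Its mean log2 change of 0.54 had p = 0.00344 in the exact permutation test within lines (adjusted over 3 ratios, 0.00516), with 3 of 4 lines higher in siI1. Of these, MV3 had TGFB2 under the limit of a mean of 0.5 FPKM, on 34 to 50 reads a library. This ratio was also chosen after its values were seen, and the p-values do not cover that choice.

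**Figure D3:**
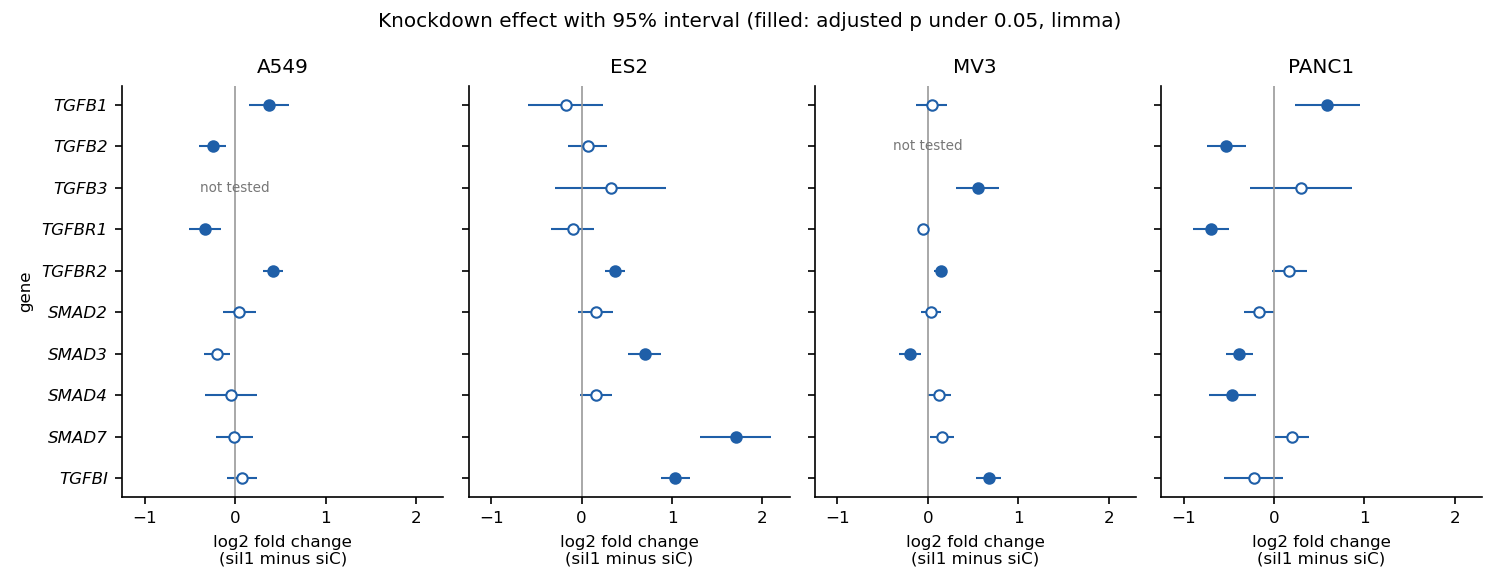
Log2 fold change (siI1 minus siC, on log2(FPKM + 0.5)) of the 10 genes in each line, with 95% intervals and filled points where the adjusted p was under 0.05. SMAD3 is to the right of 0 in ES2 at 0.70 and to the left in PANC1 at -0.38, and TGFBR1 is furthest to the left in PANC1 at -0.69.

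Among the receptor-regulated SMADs, SMAD3 rose in ES2 and fell in MV3 and PANC1, while SMAD2 was not called. SMAD3 binds DNA directly, and SMAD2 mainly through its partners. SMAD3 in ES2 was 24.7, 24.8 and 28.8 FPKM in siC and 45.0, 41.0 and 41.7 in siI1. All siI1 libraries lay well above siC, and the gene rose by 0.70 ± 0.075 (adjusted p = 0.00175). In PANC1 it was 38.7, 41.9 and 39.4 FPKM in siC and 28.7, 31.1 and 31.9 in siI1, without overlap, and fell by 0.38 ± 0.062 (adjusted p = 0.00736). In MV3 it was 9.55, 9.87 and 9.56 FPKM in siC and 7.88, 8.42 and 8.84 in siI1, and fell by 0.20 ± 0.050 (adjusted p = 0.0240). This MV3 call was lost without siC replicate 1 or 2 or siI1 replicate 1 or 2 (adjusted p = 0.0531 to 0.0820). In A549 the values of 33.0, 33.6 and 36.4 FPKM in siC and 30.7, 28.6 and 30.4 in siI1 did not overlap, but the difference of -0.20 ± 0.059 was not called (adjusted p = 0.0792), though it was by limma voom (adjusted p = 0.0110).

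SMAD2 differed by 0.04 ± 0.076 in A549 and 0.15 ± 0.079 in ES2 (adjusted p = 0.774 and 0.217), and by 0.04 ± 0.047 in MV3 and -0.17 ± 0.069 in PANC1 (adjusted p = 0.598 and 0.126). In ES2 its siI1 libraries, at 3.35 to 3.68 FPKM, lay above the siC libraries at 3.05 to 3.22. In PANC1 they lay below, at 3.74 to 3.85 against 4.25 to 4.46 FPKM. Both differences were called by limma voom on the recovered reads (adjusted p = 0.0455 and 0.0386). The SMAD3 to SMAD2 ratio was higher in siI1 in ES2, at 11.1 to 12.9 against 7.66 to 9.46 in siC, and lower in the other 3 lines, by 0.842-fold in A549, 0.843-fold in MV3 and 0.872-fold in PANC1. None of the 4 lines showed overlap between groups. Because the directions were opposed, the mean log2 change was -0.04 (exact permutation test within lines, p = 0.637, adjusted 0.637).

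SMAD4, the partner that both receptor-regulated SMADs share, fell in PANC1. Its values there were 3.03, 3.60 and 3.48 FPKM in siC and 2.59, 2.20 and 2.15 in siI1, without overlap, and the fall was 0.46 ± 0.11 (adjusted p = 0.0265). The call was lost without siC replicate 2 or 3 or siI1 replicate 2 or 3 (adjusted p = 0.0692 to 0.0807). SMAD4 was 3.59 to 3.94 FPKM in siC and 4.17 to 4.38 in siI1 of ES2, and 4.85 to 5.42 and 5.58 to 5.79 in MV3. Neither pair overlapped, but the differences of 0.16 ± 0.072 and 0.13 ± 0.053 were not called (adjusted p = 0.172 and 0.110). Limma voom called the MV3 difference (adjusted p = 0.0319). In A549 the groups overlapped (-0.05 ± 0.12, adjusted p = 0.839).

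SMAD7, the feedback inhibitor, showed the largest change of the 10 genes in any line, a rise in ES2. It was 0.506, 0.661 and 0.488 FPKM in siC and 3.42, 2.44 and 2.95 in siI1 libraries there, on 12 to 16 and 65 to 96 reads. Every siI1 library was above every siC library, and the rise was 1.70 ± 0.16 on the log2(FPKM + 0.5) scale (adjusted p = 0.00118), which understates the change of a gene this low. The group means were 0.552 ± 0.0948 and 2.94 ± 0.490 FPKM (SD). ES2 siC cells had the lowest SMAD7 level of the 4 lines, against 14.3 ± 1.144 FPKM in A549, 11.5 ± 0.564 in MV3 and 7.75 ± 0.469 in PANC1. In siI1 the ES2 level was still below every library of the other lines.

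In PANC1, SMAD7 was 7.45, 7.51 and 8.29 FPKM in siC and 8.79, 9.64 and 8.45 in siI1, without overlap, and in MV3 11.4, 12.1 and 11.02 against 12.9, 13.6 and 12.2. Neither the 0.20 ± 0.077 in PANC1 nor the 0.16 ± 0.054 in MV3 was called (adjusted p = 0.116 and 0.0679), and same-sum scaling turned the PANC1 value to -0.52 (adjusted p = 0.0412). Limma voom called the MV3 difference (adjusted p = 0.0316). In A549 the groups overlapped, at 13.3 to 15.6 and 13.1 to 14.98 FPKM (-0.01 ± 0.085, adjusted p = 0.945). The 4 log2 fold changes of SMAD7 had a range of 1.72, the widest of the genes tested in all lines. Over the 24 libraries, each centred on its own line, the protein-coding genes with the most similar pattern among 9649 were ITGB5, an integrin subunit (Pearson r = 0.961), ATP8B1, a membrane lipid flippase (0.955), and HEG1, a membrane protein of endothelial junctions (0.954). These r describe libraries that share their line, siRNA and scaling. Their log2 fold changes in ES2 were 1.24, 2.83 and 1.97, and those in the other lines lay between -0.11 and 0.40.

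TGFBI, the matrix protein, rose in ES2 and MV3. It was 9.69, 8.80 and 9.78 FPKM in siC and 19.0, 19.4 and 21.1 in siI1 of ES2, a rise of 1.03 ± 0.066 (adjusted p = 0.000326). In MV3 it was 21.9, 23.7 and 22.8 FPKM in siC and 34.5, 36.0 and 39.6 in siI1, a rise of 0.67 ± 0.058 (adjusted p = 0.000468). Groups were far apart in both. A549 had by far the highest level, 114 to 130 FPKM in siC and 119 to 131 in siI1, and PANC1 the lowest, 4.80 to 6.84 and 4.42 to 5.05. The groups overlapped in these lines, with differences of 0.08 ± 0.068 and -0.23 ± 0.14 (adjusted p = 0.532 and 0.277). The listed length of TGFBI, 7810 bases, is 2.88 times that of its canonical transcript, so its FPKM is low relative to the other genes.

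Within siC, the order of levels per length therefore depends on the gene length used. TGFBR2 was first in ES2 and MV3 at 37.0 ± 0.395 and 63.2 ± 1.82 FPKM (SD), TGFBI in A549 at 120 ± 8.88 and SMAD3 in PANC1 at 40.0 ± 1.66, and with the canonical transcript length, an alternative added after the values were seen, the leaders in A549, ES2 and PANC1 were the same. In MV3 TGFBR2 and TGFBI then stood level, at 65.7 and 65.6. TGFBI in PANC1 went from place 7 to place 3. The lowest place was held by TGFB3 in A549, ES2 and PANC1 and by TGFB2 in MV3 with the listed length, and by SMAD7 in place of TGFB3 in ES2 with the canonical one.

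A joint limma fit of all 24 libraries asked whether the knockdown effect was the same in the 4 lines. Of the 10 genes, 8 reached 0.5 FPKM in each line, and for all 8 the effects differed (F test on 3 degrees of freedom, Benjamini-Hochberg over 12816 genes), where 45% of all genes did. The adjusted p was 2.80e-08 for SMAD7, 8.93e-08 for SMAD3, 1.87e-06 for TGFBI, 0.000150 for TGFBR1, 0.000861 for SMAD4, 0.00900 for TGFBR2, 0.00944 for SMAD2 and 0.0179 for TGFB1. The mean effect over the lines was called higher for 4 of the 8, where 20.5% of all genes were. These were SMAD7 (0.51 ± 0.046, adjusted p = 2.82e-08), TGFBI (0.39 ± 0.047, adjusted p = 1.04e-06), TGFBR2 (0.28 ± 0.026, adjusted p = 5.67e-08) and TGFB1 (0.21 ± 0.071, adjusted p = 0.0221). It was called lower for TGFBR1 alone (-0.29 ± 0.035, adjusted p = 1.15e-06), where 28.1% of all genes were lower. The means of SMAD2, SMAD3 and SMAD4 lay between -0.056 and 0.016 and were not called (adjusted p = 0.656, 0.630 and 0.281). Of the 4 effects behind the SMAD7 mean, that in ES2 was called on its own. TGFBR2 had all siI1 above all siC libraries in 4 lines, and TGFBR1 all below in 3, with overlap in ES2. For TGFBR1 in MV3 the difference was only -0.05 and was not called. The share of all genes whose groups separate in this way was not computed, so these counts only describe the 2 genes. With same-sum scaling the mean effects of TGFB1 and TGFBR2 were not called (adjusted p = 0.692 and 0.103), and those of SMAD2 (-0.15), SMAD3 (-0.20) and SMAD4 (-0.21) were called lower (adjusted p = 0.0410, 0.00251 and 0.00874).

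The rest of the pathway was followed in 82 genes in 6 lists. In A549, 65 of them were tested, 17 were lower and 10 higher in siI1, where 7.83% and 5.93% of all genes were. Of 63 tested in ES2, 8 were lower and 22 higher, beside 13% and 10.5% of all genes. MV3 had 13 lower and 24 higher among 60, beside 19.5% and 16.3%, and PANC1 9 and 10 among 59, beside 13.4% and 11.3%. The PANC1 counts and the lower counts in ES2 and MV3 were thus near those of all genes. These shares of all genes are for limma on FPKM at an adjusted p under 0.05 and apply to such counts in each list that follows. They do not apply to counts by limma voom or at an unadjusted p. Limma voom called 4176 of 18411 genes in A549 and 5358 of 16920 in ES2, in either direction. The PANC1 split depends on the scaling. With same-sum scaling 35 of 60 were lower and 0 higher, and with median-of-ratios scaling 8 of 59 were lower and 15 higher. Over all genes in PANC1, in either direction, same-sum scaling called 8966 of 16238 and median-of-ratios scaling 3890 of 15831. The 35 of 60 thus lay near the same-sum share of all genes. The latency and activation list holds genes that store the ligand in the matrix or release it. In A549, 4 of its 8 tested genes were lower (median -0.56) and 0 higher by any of limma, limma voom and the unadjusted p, while in MV3 1 of 7 was lower and 6 were higher (median 0.28). In ES2 3 of 9 were lower and 4 higher, and in PANC1 1 of 9 was lower. FURIN, the protease that cleaves the TGF-beta precursor, was lower in all 4 lines, and fell by 0.81 in A549, by 0.28 in ES2, by 0.49 in MV3 and by 0.60 in PANC1 (adjusted p = 0.00129, 0.0199, 0.00101 and 0.00215). With same-sum scaling the ES2 call was lost (-0.21, adjusted p = 0.0999). ITGAV, the integrin chain that pulls active ligand from its latent complex, rose by 1.40 in ES2 (adjusted p = 8.85e-05) and by 0.26 in MV3 (adjusted p = 0.00478), the MV3 call being lost with same-sum scaling (adjusted p = 0.0701).

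Among 9 other receptors tested in ES2, 0 were called by limma, against 3 at an unadjusted p under 0.05 and 4 by limma voom. In A549, 2 of 8 were lower and 1 was higher (7.83% and 5.93% of all genes), while 4 of 9 were higher in MV3 (16.3% of all genes) and 3 of 7 lower in PANC1 (13.4% of all genes). BMPR2, the type II receptor for bone morphogenetic proteins, fell by 0.75 in A549 and by 0.60 in PANC1 and rose by 0.27 in MV3 (adjusted p = 0.00338, 0.00213 and 0.00226). ACVR2A, an activin receptor, rose by 0.38 in MV3 (adjusted p = 0.00454). Of the other SMADs, SMAD5, which carries bone morphogenetic protein signals, rose by 0.64 in A549, 0.61 in ES2 and 0.43 in MV3 (adjusted p = 0.00309, 0.00183 and 0.000835), and SMAD1 lay between -0.19 and 0.38 and was not called by limma on FPKM. By limma voom SMAD1 was called higher in ES2, and with same-sum scaling it was lower in PANC1 (-0.63, adjusted p = 0.0310).

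Of the pathway regulators, 2 were lower and 2 higher among 17 in A549, 3 and 4 among 16 in MV3 and 3 and 2 among 17 in PANC1. In ES2 4 of 16 were higher and 0 lower by limma on FPKM, with 2 lower at an unadjusted p under 0.05 and 2 by limma voom. In MV3 and PANC1 the counts lay close to the shares of all genes. FKBP1A, which binds TGFBR1 and holds it inactive, rose in all 4 lines, by 0.22 in A549, by 0.56 in ES2, by 0.16 in MV3 and by 0.99 in PANC1 (adjusted p = 0.0359, 0.00798, 0.0297 and 0.00103). With same-sum scaling it stayed above 0 in each line but was called in ES2 alone (0.63, adjusted p = 0.0153). PMEPA1, a TGF-beta target that dampens the pathway, fell by 1.83 in A549 (adjusted p = 0.000319) and by 0.39 in PANC1 (adjusted p = 0.00369). In the list of other ligands and antagonists, BMP1, a protease that acts on matrix proteins, rose by 1.38 in ES2 and 0.53 in MV3 (adjusted p = 0.000577 and 0.000777), and GDF11 rose by 0.33 in MV3 (adjusted p = 0.0341; 0.0711 with same-sum scaling).

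The 20 transcriptional targets did not move as a block. In A549, 5 of the 18 tested were lower and 6 higher, with a median of -0.089. The counts were 3 and 9 of 16 in ES2 (median 0.46), 7 and 4 of 17 in MV3 (median -0.14) and 2 and 5 of 14 in PANC1 (median 0.26). The 2 lower in PANC1 and the 4 higher in MV3 were near the 13.4% and 16.3% of all genes. CDKN1A, a cell cycle inhibitor that TGF-beta induces, fell by 0.43 in A549, 0.94 in ES2 and 0.57 in MV3 (adjusted p = 0.00495, 0.00581 and 0.00582). ID3, an inhibitor of basic helix-loop-helix factors, rose by 0.29 in MV3 and 0.88 in PANC1 (adjusted p = 0.0223 and 0.00661), the latter 0.14 and not called with same-sum scaling.

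**Figure D4:**
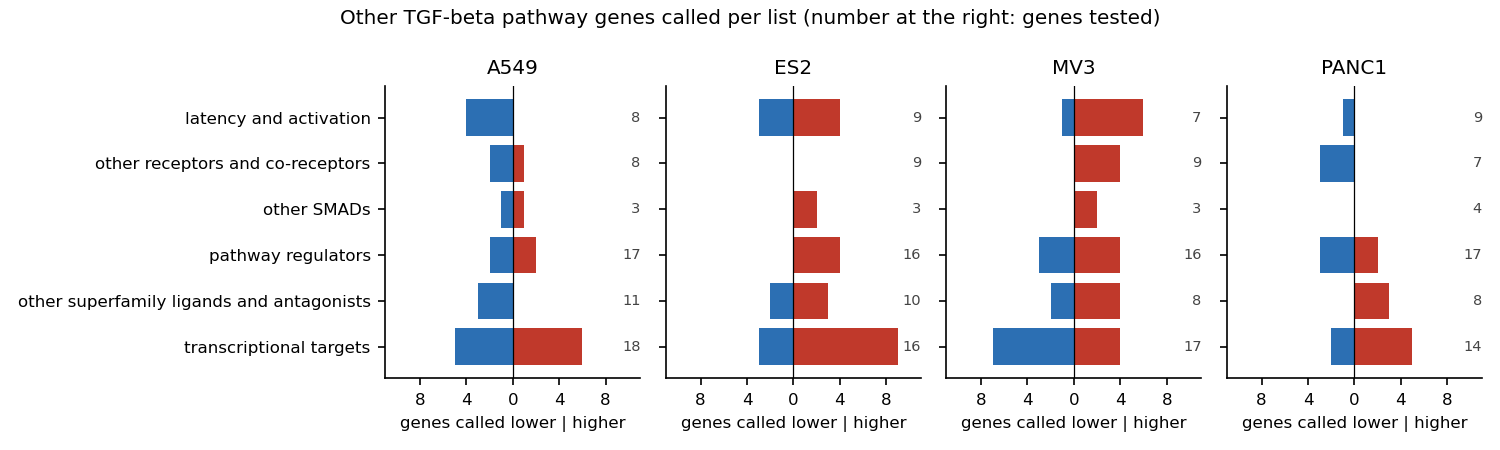
Number of other TGF-beta pathway genes called lower (blue, to the left) or higher (red, to the right) in siI1 in each list and line, with the number tested at the right edge of each panel. Latency and activation genes are called lower 4 times in A549 and higher 6 times in MV3, and 9 transcriptional targets are higher in ES2.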

How the data were processed

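Total RNA libraries of 4 lines were compared between siC and siI1, with groups and replicate numbers taken from each library's label. Per the labels and methods, the authors used cutadapt (1.14) for trimming, HISAT2 (2.1.0) for alignment to hg38, SAMtools (1.5), featureCounts (1.5.3) with an Ensembl annotation for read counts, and edgeR (3.30.3) with TMM scaling for their tests. The values the authors deposited are FPKM, per listed gene length and TMM-scaled library; the unit was worked out from the values, since each library has a step of which 100% of its values, multiplied by length, are whole multiples (tolerance 0.01). The authors' fold changes, p-values and FDR columns were not used.

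Each line was tested with limma (3.58.1 in R 4.3.3; intensity trend, two-sided) on log2(FPKM + 0.5), which understates the change of low genes, over genes that averaged 0.5 FPKM or more in its 6 libraries, without covariates, with Benjamini-Hochberg adjustment and a threshold of 0.05. A joint fit of the 24 libraries gave the mean effect and the F test of equal effects. The fits were tested on simulated data, where the fit per line called too many unchanged short genes but none as long as the 10 genes, all listed at 3238 bases or more. The simulation used 1 spread between replicates for every gene and line and split genes by length, not by reads. It therefore does not vouch for calls on genes with few reads or in lines with a wider spread. The methods call the replicates biological. Replicate pairs differed by more than sampling noise (chi-square per gene 1.54 to 15.1, where the pair held 20 reads or more). Ratios were computed in Python 3.11.15 (numpy 2.4.6, pandas 2.3.3), plots with matplotlib 3.10.9. Coordinates and 3'UTRs are from GENCODE release 44 (hg38), promoter windows and microRNAs from RefSeq. The 10 genes, the pathway lists and the tests were chosen with earlier results of these data known. Named pathway genes are the lowest and highest mean log2 fold change of each list among genes tested in all 4 lines, with any gene called in 1 direction in all 4. For the gene with the widest range, the 3 most correlated protein-coding genes are named. Alternatives were other pseudocounts, filters and scalings, voom on the recovered reads, a robust variance prior, the replicate number as a block and leaving out each library. A tissue marker chosen for ES2 is not reported here.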

Additional observations from a re-analysis of the deposited data

Results flagged for a closer look

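For 8 genes the knockdown effect differed between the 4 lines in the joint limma fit. The adjusted p of that difference was 0.0179 for TGFB1, 0.000150 for TGFBR1, 0.00900 for TGFBR2, 0.00944 for SMAD2, 8.93e-08 for SMAD3, 0.000861 for SMAD4, 2.80e-08 for SMAD7 and 1.87e-06 for TGFBI. These are all of the 8 genes that the test covered, and 45% of 12816 genes passed it. SMAD3 was called in opposite directions, at 0.70 in ES2 and at -0.20 and -0.38 in MV3 and PANC1. For SMAD7 and TGFBI the effects ranged from -0.01 to 1.70 and from -0.23 to 1.03. PANC1 was harvested at 96 h and the other lines at 72 h, so that line and time cannot be told apart for PANC1. The depletion was not equal either. The log2 fold change of IGF2BP1 itself, -1.32 in A549 and -1.83 in PANC1, differed between lines in the same F test (adjusted p = 9.77e-05). The part of this in the 8 differences was not tested. No group had enough libraries for a check of single outlying libraries.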

How the results depend on the processing

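Over 38 combinations of gene and line and 606 recomputed values, 544 kept their direction and side of the threshold, 44 lost the call, 8 gained one and 10 changed sign. The number of genes called in A549, 4, became 2 with a filter at 0.1 FPKM, 2 with no filter, 2 with same-sum scaling and 1 with the replicate number as a block, and 1 to 2 with 1 library left out. The number in PANC1, 5, became 3 with no filter, 8 with same-sum scaling and 3 to 5 with 1 library left out. Same-sum scaling called 8966 of 16238 genes in PANC1, against 3927 of 15846 in the main fit. Over all alternatives it was 4 to 5 in ES2 and 3 to 6 in MV3, and 5 to 7 for the mean effect and 7 to 9 for the difference between lines. Same-sum scaling in PANC1 turned TGFB1 to -0.12, TGFB3 to -0.16, TGFBR2 to -0.57 and SMAD7 to -0.52, and moved the median of all genes from -0.036 to -0.68. It also turned the mean effect of SMAD2 to -0.15, gave calls on the means of SMAD2, SMAD3 and SMAD4, and took the calls on the mean effect of TGFB1 (0.035, adjusted p = 0.692) and TGFBR2 (0.098, adjusted p = 0.103) and on the difference between lines of TGFB1 (adjusted p = 0.119). Median-of-ratios scaling turned SMAD7 in A549 to 0.0085 and the mean effect of SMAD3 to 0.00069. With 1 library left out, uncalled values also changed sign: SMAD4 in A549 ranged from -0.13 to 0.0064, SMAD7 in A549 from -0.061 to 0.047, TGFB1 in ES2 from -0.30 to 0.018 and TGFB1 in MV3 from -0.026 to 0.094. The replicate numbers did not pair the libraries: same-numbered siC and siI1 libraries correlated at -0.056 to 0.071. The block took the calls of TGFB1, TGFB2 and TGFBR1 in A549, SMAD3 in MV3 (adjusted p = 0.0533) and SMAD4 in PANC1 (adjusted p = 0.0782), and gave that of SMAD7 in MV3 (adjusted p = 0.0419). The mean change of the TGFBR2 to TGFBR1 ratio was 0.57 to 0.61 without any 1 library. The causes were not tested. Depth limits TGFB3 outside MV3 and TGFB2 in MV3, which rested on at most 50 reads a library.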
